A study of Mus musculus with 12 samples.

Results

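The UDP-glucuronosyltransferases (UGTs) described here were 10 genes of mouse liver: Ugt1a1, Ugt1a6a, Ugt1a9, Ugt2a3, Ugt2b1, Ugt2b5, Ugt2b34, Ugt2b35, Ugt2b36 and Ugt3a1. They were chosen by name as members of the Ugt family, by matching the Ensembl identifiers of the expression table to these symbols, and all 10 were among the 35275 genes of the table. The choice was made with earlier results of these data known. Expression was given as FPKM, in which mapped fragments are scaled by the length of the gene and the size of the library. All 10 passed the filter for testing, a mean of at least 0.5 FPKM over the 12 libraries, which 12466 genes of the table passed. The table held 11 further Ugt genes, of which 6 passed the filter, and these are given for comparison.

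RNA-seq was performed on whole liver from WT mice and from Pctp-/- mice, which lack phosphatidylcholine transfer protein in every cell of the body and not in hepatocytes alone. Each genotype was fed either chow or a methionine- and choline-deficient (MCD) diet, which causes fat to accumulate in the liver, with 3 mice in each of the 4 groups. The study describes its mice as male, and their age and time on the MCD diet are not given for these libraries in the sources used here. The comparisons ask how the UGT genes respond to the diet in each genotype, how they differ between genotypes on each diet, and whether the diet response differs between genotypes.

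Glucuronidation joins glucuronic acid, donated by UDP-glucuronic acid, to bilirubin, steroid hormones, bile acids, fatty acids and many drugs. The UGT enzymes sit in the membrane of the endoplasmic reticulum and face its lumen, and the water-soluble glucuronides they make leave hepatocytes into bile or blood. UGT1A1 clears bilirubin, UGT1A6 prefers small planar phenols and UGT1A9 accepts bulkier phenols, while UGT2B enzymes handle steroids, bile acids and drugs. UGT3A enzymes differ from the UGT1A and UGT2 enzymes in using sugar donors other than UDP-glucuronic acid.

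The libraries held 30486576 to 55179468 uniquely mapped reads. On chow, the mean of Pctp itself was 2.04 ± 0.746 FPKM (SD, n = 3) in WT livers and 0.420 ± 0.127 in Pctp-/- livers. On MCD, it was 5.54 ± 2.18 and 0.259 ± 0.0909, so the genotype labels held in all 12 libraries. The 8 hepatocyte markers were detected in every group, with sums of 44468 to 80342 FPKM per library. The chow and MCD libraries differed in technical measures, with 77.6% to 79.4% of reads mapped uniquely on chow and 85.7% to 87.5% on MCD, and a base error rate of 0.03% against 0.01%. The effect of diet and that of these technical differences therefore cannot be told apart in any comparison of MCD with chow, whereas on each diet all these measures overlapped between the genotypes. In whole liver, fewer cells of a type and less RNA per cell also cannot be told apart.

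The positions of the genes (GRCm38, GENCODE M21) bear on how their values may be read. Ugt1a1, Ugt1a6a and Ugt1a9 lie on the plus strand of chromosome 1, at 88211959-88218997, 88134809-88218997 and 88070800-88218997. Each has a first exon of its own, and all 3 splice it to the same 4 exons, which hold 1311 bases. The shared coding part of 735 bases was identical among the 3, while the first-exon coding parts, of 849 to 870 bases, were 55.4% to 58.0% identical. The junction of the first and second exons shows this. The last 30 coding bases of each first exon are given in lower case, and the first 30 bases of the shared second exon (chr1:88215044-88215073) in capitals.
Ugt1a1 (first-exon bases at chr1:88212842-88212871): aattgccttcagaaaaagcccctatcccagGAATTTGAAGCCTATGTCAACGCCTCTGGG
Ugt1a6a (first-exon bases at chr1:88139302-88139331): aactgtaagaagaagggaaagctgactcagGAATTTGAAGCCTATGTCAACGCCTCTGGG
Ugt1a9 (first-exon bases at chr1:88071649-88071678): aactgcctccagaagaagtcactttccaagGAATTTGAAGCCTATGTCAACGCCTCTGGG
The capitals are the same in all 3, so a read that lies wholly in the shared exons belongs to no single one of them. Of the annotated exonic bases, 58.9% of Ugt1a1, 50.3% of Ugt1a6a and 59.9% of Ugt1a9 were shared with other Ugt1a genes on the same strand. The antisense gene Gm20528 overlapped 41.5%, 9.14% and 18.0% of them on the opposite strand. How reads of shared exons were counted, and whether strand was used, is not given in the sources used here, so the values of the 3 Ugt1a genes are uncertain in that respect.

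The 6 Ugt2 members lie in a cluster on chromosome 5. On the minus strand are Ugt2b34 (86889767-86906937), Ugt2b1 (86916638-86926530), Ugt2b36 (87065927-87092555), Ugt2b5 (87124960-87140318) and Ugt2a3 (87324972-87337195), and on the plus strand is Ugt2b35 (87000860-87013275). Ugt3a1 lies on chromosome 15 (9276888-9315032, plus strand). None of these 7 shares exonic bases with another gene, but several have close copies. The coding sequence of Ugt2b5 was 97.0% identical to that of Ugt2b38 and 94.7% to that of Ugt2b37, Ugt3a1 was 93.2% identical to Ugt3a2, Ugt1a9 95.3% to Ugt1a10, and Ugt1a6a 98.4% to Ugt1a6b. Ugt2a3, Ugt2b1 and Ugt2b34 were more distinct, with closest relatives at 71.5%, 74.7% and 74.7% identity.

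Upstream sequences are shown for 4 genes called with MCD in WT livers, Ugt2a3 and Ugt1a9, which fell, and Ugt2b34 and Ugt2b35, which rose. Each run is the 250 bases before the RefSeq start (GRCm38.p6), written 5′ to 3′ on the strand of the gene, with capitals marking AGGTCA or its reverse complement TGACCT, the hexamer bound by nuclear receptors such as the pregnane X receptor and the constitutive androstane receptor.
Ugt2a3 (chr5:87337196-87337445, minus strand): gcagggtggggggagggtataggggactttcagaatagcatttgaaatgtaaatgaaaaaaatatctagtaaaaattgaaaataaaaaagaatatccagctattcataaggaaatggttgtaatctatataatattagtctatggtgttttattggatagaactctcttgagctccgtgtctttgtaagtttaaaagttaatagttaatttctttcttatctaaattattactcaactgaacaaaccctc
Ugt1a9 (chr1:88070529-88070778, plus strand): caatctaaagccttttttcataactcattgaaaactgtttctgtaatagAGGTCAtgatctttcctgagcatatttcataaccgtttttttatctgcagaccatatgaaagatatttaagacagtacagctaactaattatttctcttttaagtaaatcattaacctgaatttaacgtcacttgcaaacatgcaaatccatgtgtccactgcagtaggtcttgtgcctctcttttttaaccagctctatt
Ugt2b34 (chr5:86906938-86907187, minus strand): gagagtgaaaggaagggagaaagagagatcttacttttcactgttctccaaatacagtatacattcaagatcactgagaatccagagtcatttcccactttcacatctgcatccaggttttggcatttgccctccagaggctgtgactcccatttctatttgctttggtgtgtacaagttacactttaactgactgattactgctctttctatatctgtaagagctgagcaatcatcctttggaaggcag
Ugt2b35 (chr5:87000610-87000859, plus strand): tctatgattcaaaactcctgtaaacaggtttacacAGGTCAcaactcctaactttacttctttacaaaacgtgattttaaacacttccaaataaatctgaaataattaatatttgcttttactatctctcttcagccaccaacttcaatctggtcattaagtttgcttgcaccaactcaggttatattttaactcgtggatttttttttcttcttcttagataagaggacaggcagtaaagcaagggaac
The AGGTCA letters, read on both strands like the other motifs here, were found upstream of 4 of the 10 genes (Ugt1a9, Ugt2b35, Ugt2b36 and Ugt2b5), against 14% of 32851 mouse promoters of the same length. The matches of Ugt2b36 (at -25) and Ugt2b5 (at -22) lie in a stretch of the same letters, so these 2 are not independent. For Ugt1a9 and Ugt2b5 the sequence after the RefSeq start was not found whole in a GENCODE transcript. TTCNNNGAA, which STAT and BCL6 proteins bind, was found upstream of Ugt1a6a alone, against 7.02% of all promoters. GCGTG, the core of the aryl hydrocarbon receptor element (28.2% of all promoters), and TGACNNNGC, the core of the antioxidant response element (10.2%), were in none of the 10 windows. AGGTCA read on the opposite strand, TGACCT, can overlap TGACNNNGC. These matches describe letters in the window, and binding was not measured.

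On chow, 3 UGT2B genes held most of the UGT signal. In WT livers Ugt2b5 was at 389 ± 35.4 FPKM (SD, n = 3), Ugt2b36 at 315 ± 26.8 and Ugt2b1 at 240 ± 36.4. Ugt2a3 (104 ± 0.806), Ugt1a9 (85.9 ± 9.37), Ugt2b34 (85.8 ± 7.76), Ugt2b35 (54.0 ± 12.6) and Ugt3a1 (32.9 ± 2.90) followed, while Ugt1a1 (5.18 ± 0.966) and Ugt1a6a (2.78 ± 1.12) were far lower. The ranges of neighbouring genes overlapped only for Ugt1a9 and Ugt2b34. The order by mean was the same in Pctp-/- livers on chow, from Ugt2b5 at 367 ± 7.06 to Ugt1a6a at 1.87 ± 0.923, with overlapping neighbours at Ugt2a3, Ugt1a9 and Ugt2b34 and at Ugt2b35 and Ugt3a1.

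On MCD the order changed. In WT livers Ugt2b5 (279 ± 21) and Ugt2b36 (271 ± 42.2) overlapped at the top, Ugt2b34 was the third at 192 ± 6.43, and Ugt2a3 (31.4 ± 2.43) stood below Ugt2b35 (104 ± 10.7) and Ugt1a9 (51.7 ± 12.3). In Pctp-/- livers on MCD Ugt2b36 (281 ± 14.6) was above Ugt2b5 (211 ± 11.3) with no overlap, and Ugt2b1 (159 ± 25.3) overlapped Ugt2b34 (143 ± 8.05). Ugt1a1 and Ugt1a6a overlapped at the bottom in both genotypes on MCD. The sum of the 10 genes was 1316 ± 33.6 FPKM in WT and 1237 ± 41.1 in Pctp-/- livers on chow, and 1068 ± 54.8 and 1019 ± 29.7 on MCD. Every chow library (1209 to 1351) was above every MCD library (986 to 1112).

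**Figure D1:**
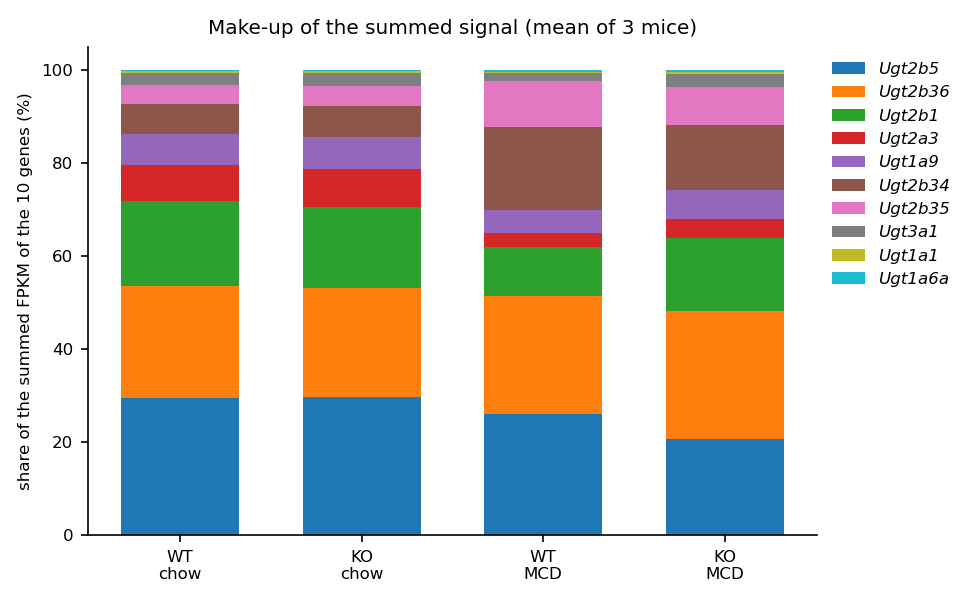
Share of the summed FPKM of the 10 UGT genes (vertical axis, %) held by each gene in the 4 groups, as the mean of 3 mice. Ugt2b34 went from 6.53% in WT livers on chow to 18.0% on MCD and from 6.77% to 14% in Pctp-/- livers, while Ugt2a3 went from 7.90% to 2.94% and from 8.09% to 4.14%.

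MCD diet in WT livers. With the diet, 7 of the 10 UGT genes changed in WT livers, against 57% of all 12466 tested genes (limma with Benjamini-Hochberg adjusted p under 0.05). The 5 that fell were Ugt2a3, Ugt2b1, Ugt3a1, Ugt1a9 and Ugt2b5, and the 2 that rose were Ugt2b34 and Ugt2b35. The chow and MCD groups did not overlap in these 7 genes, against 63.7% of all tested genes. Of all tested genes 34.5% rose and 22.5% fell, so that 60.5% of the genes called were higher on MCD, and 50.1% were with median-of-ratios scaling. The median log2 fold change was -0.41 over the 10 UGT genes and 0.11 over all tested genes, and median-of-ratios scaling moved the latter to -0.0013. All fold changes are on the scale of log2(FPKM + 1). For genes near or below 1 FPKM the added 1 makes them smaller than the log2 ratio of the means. Marker sums also differed between the diets. The 8 hepatocyte markers summed to 44468 to 50174 FPKM per library on chow and 59032 to 80342 on MCD. Of the 8, 2 rose and 3 fell in WT livers, and 2 rose and 3 fell in Pctp-/- livers. Of all tested genes, 57% and 50.3% were called. The 7 stellate cell markers, none at 0, summed to 29.9 to 54.7 FPKM on chow and 133 to 188 on MCD, most of it Dcn, which went from 31.8 ± 7.67 to 135 ± 20.6 FPKM in WT livers. Of the 7, 4 rose and 0 fell in WT and 3 rose and 0 fell in Pctp-/- livers. The shares of all tested genes called were near these, at 57% and 50.3%. Col1a1 was at means of 1.97 and 1.75 FPKM in WT livers on chow and MCD. The 8 macrophage and leukocyte markers summed to 81.5 to 138 FPKM on MCD, against 33.3 to 82.3 on chow. In WT livers the 6 endothelial markers summed to 50.6 to 61.5 FPKM on MCD, against 38.2 to 46.1 on chow. Of the 6, 2 rose there (Clec4g and Lyve1) and 1 fell (Vwf, from 1.90 to 0.328 FPKM), against 57% of all tested genes called. In Pctp-/- livers 0 of the 6 were called, against 50.3% of all tested genes. Their sums overlapped there, at 45.7 to 50.2 on MCD and 38.7 to 54.9 on chow. Their part in the diet results was not tested.

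MCD diet in Pctp-/- livers. With the diet, 5 of the 10 genes changed in Pctp-/- livers, against 50.3% of all tested genes. Ugt2a3, Ugt2b5 and Ugt2b1 fell, as did 24.4% of all tested genes, and Ugt2b34 and Ugt2b35 rose, as did 26%. The diets did not overlap in 5 of the 10 genes, against 59.7% of all tested genes. The median of the log2 fold changes was -0.21 for the 10 genes and 0.04 for the whole set tested. The individual genes are given next in the order of their subfamilies.

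**Figure D2:**
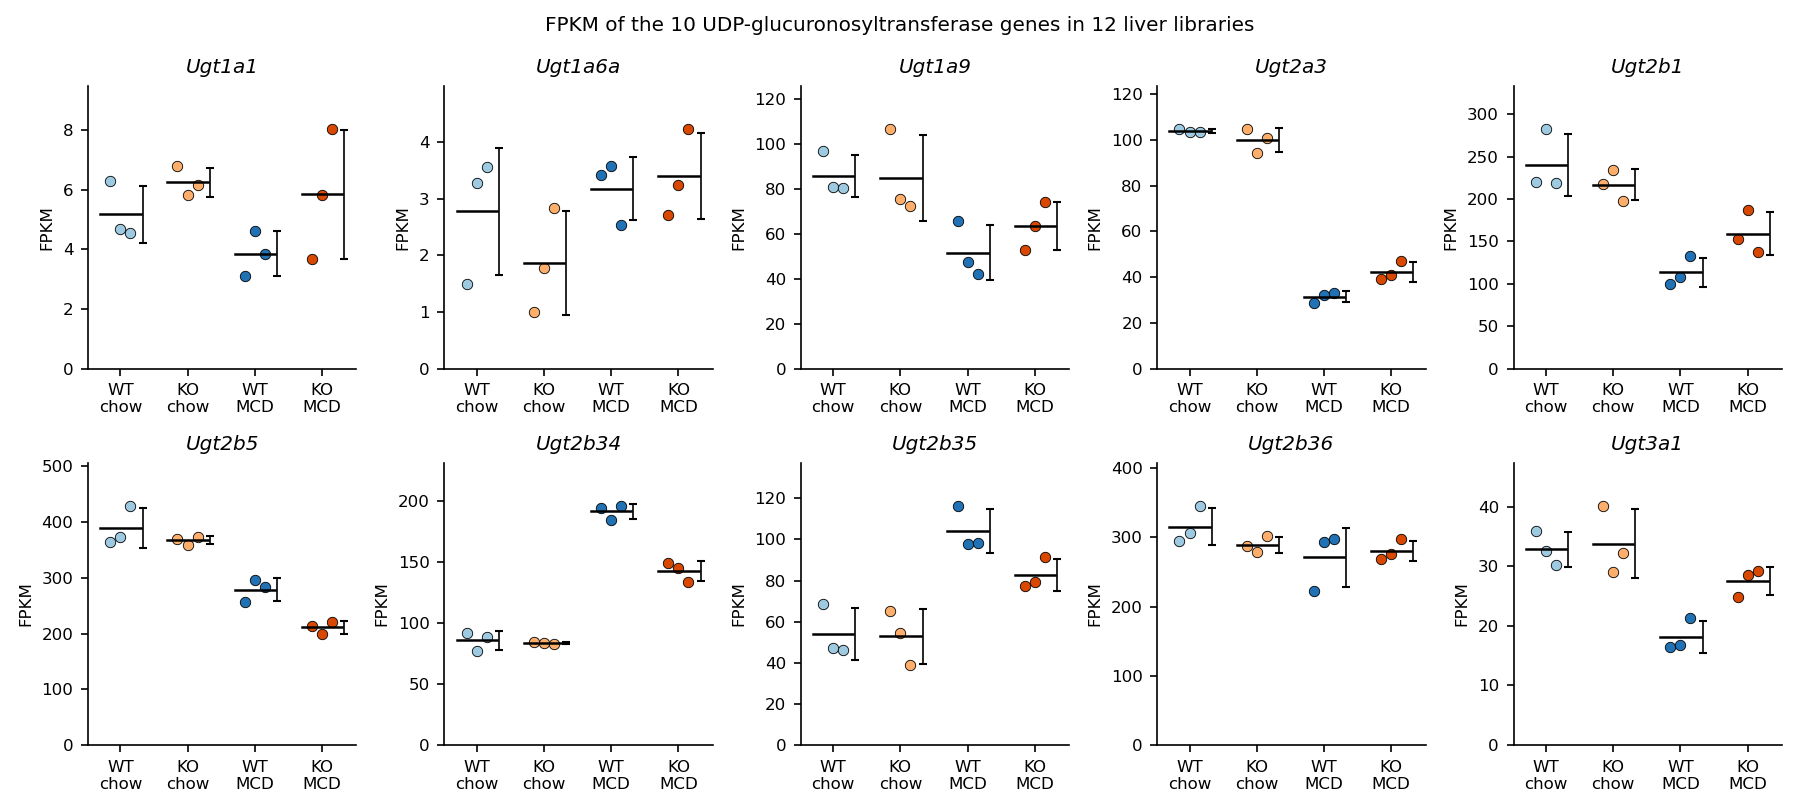
FPKM of each of the 10 UGT genes (vertical axis from 0) in the 12 liver libraries, by group. Points are mice, horizontal lines are group means and bars beside them are ± 1 SD (n = 3). All MCD points of Ugt2a3 and Ugt2b1 lie below all chow points, and all MCD points of Ugt2b34 and Ugt2b35 lie above them.

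Ugt1a1, the bilirubin-conjugating enzyme, was at 6.30, 4.70 and 4.55 FPKM in WT livers on chow and 3.11, 4.62 and 3.85 on MCD. In Pctp-/- livers it was at 6.79, 5.83 and 6.16 on chow and 3.68, 5.82 and 8.04 on MCD. The groups overlapped in both genotypes, and the log2 fold changes with MCD were -0.35 (SE 0.21, limma adjusted p = 0.171) in WT and -0.13 (SE 0.21, adjusted p = 0.616) in Pctp-/- livers. Ugt1a6a ranged from 0.996 to 4.24 FPKM over the 12 libraries, with the lowest value in a Pctp-/- liver on chow. Its log2 fold change with MCD was 0.18 (SE 0.26, adjusted p = 0.564) in WT and 0.65 (SE 0.26, adjusted p = 0.0531) in Pctp-/- livers, and the latter passed the threshold without WT chow replicate 1 (adjusted p = 0.0259) or without Pctp-/- chow replicate 3 (adjusted p = 0.0161).

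Ugt1a9, which conjugates phenols and fatty acids, was the most abundant of the 3 Ugt1a members. It was at 96.8, 80.7 and 80.4 FPKM in WT livers on chow and 65.5, 47.4 and 42.1 on MCD, without overlap. This was a log2 fold change of -0.74 (SE 0.19, limma adjusted p = 0.00487). In Pctp-/- livers the values were 107, 75.7 and 72.3 on chow and 52.7, 63.6 and 74.3 on MCD. The highest MCD mouse stood above the lowest chow mouse, and the log2 fold change of -0.40 (SE 0.19, adjusted p = 0.0910) did not pass the test.

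Ugt2a3, the 2A member of liver, had the largest fall of the 10 genes in both genotypes. It was at 105, 103 and 103 FPKM in WT livers on chow and 28.6, 32.3 and 33.2 on MCD, a log2 fold change of -1.70 (SE 0.09, limma adjusted p = 8.03e-08), or 0.302 times the chow mean. The Pctp-/- livers had 105, 94.3 and 101 on chow and 39.0, 40.7 and 47.0 on MCD, a log2 fold change of -1.23 (SE 0.09, adjusted p = 9.84e-07). All 6 MCD livers were below all 6 chow livers, and the 3 Pctp-/- livers on MCD were above the 3 WT livers on MCD.

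Ugt2b1 was at 220, 282 and 219 FPKM in WT livers on chow and 100, 107 and 133 on MCD, a log2 fold change of -1.08 (SE 0.15, limma adjusted p = 6.73e-05). Values in Pctp-/- livers were 218, 234 and 198 on chow and 153, 187 and 137 on MCD, a log2 fold change of -0.45 (SE 0.15, adjusted p = 0.0211). The chow and MCD groups did not overlap in either genotype. The call in Pctp-/- livers was lost with quantile normalization (adjusted p = 0.0523) and without Pctp-/- chow replicate 2 (0.0770), Pctp-/- MCD replicate 1 (0.0607) or Pctp-/- MCD replicate 3 (0.0903).

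Ugt2b5, the most abundant UGT transcript on chow, fell in both genotypes. It was at 364, 374 and 430 FPKM in WT livers on chow and 256, 297 and 284 on MCD, a log2 fold change of -0.48 (SE 0.09, limma adjusted p = 8.08e-04). The Pctp-/- livers were at 370, 359 and 373 on chow and 214, 199 and 221 on MCD, a log2 fold change of -0.80 (SE 0.09, adjusted p = 2.50e-05). Ugt2b5 was lowest in the 3 Pctp-/- livers on MCD, whereas Ugt2a3 and Ugt2b1 were lowest in the 3 WT livers on MCD. Ugt2b36, of similar abundance and 88.6% identical in coding sequence, overlapped between the diets, at 295, 306 and 346 FPKM in WT livers on chow and 222, 293 and 298 on MCD. Its log2 fold change was -0.23 (SE 0.11, adjusted p = 0.109) in WT livers, and it passed the threshold there with rescaling to the same total (-0.33), quantile normalization (-0.32) and median-of-ratios scaling (-0.37). Its Pctp-/- log2 fold change was -0.04 (SE 0.11, adjusted p = 0.776).

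Ugt2b34 rose the most of the 10 genes. It was at 91.9, 77.1 and 88.5 FPKM in WT livers on chow and 194, 184 and 196 on MCD, a log2 fold change of 1.15 (SE 0.08, limma adjusted p = 7.04e-07), or 2.23 times the chow mean. Pctp-/- livers had 84.5, 83.9 and 82.7 on chow and 150, 145 and 134 on MCD, a log2 fold change of 0.76 (SE 0.08, adjusted p = 2.04e-05). The 4 groups fell into 3 levels that did not overlap, with both chow groups lowest, Pctp-/- livers on MCD between and WT livers on MCD highest. Ugt2b35 was at 68.5, 47.2 and 46.3 FPKM in WT livers on chow and 116, 97.6 and 98.3 on MCD, a log2 fold change of 0.95 (SE 0.19, adjusted p = 9.15e-04). Among Pctp-/- livers it was at 65.1, 54.6 and 38.8 on chow and 77.1, 79.4 and 91.5 on MCD, a log2 fold change of 0.66 (SE 0.19, adjusted p = 0.0104).

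Ugt3a1 was at 36.0, 32.5 and 30.2 FPKM in WT livers on chow and 16.4, 16.7 and 21.3 on MCD, a log2 fold change of -0.83 (SE 0.13, limma adjusted p = 2.65e-04). In Pctp-/- livers it was at 40.2, 29.0 and 32.3 on chow and 24.9, 28.5 and 29.2 on MCD, where the groups overlapped and the log2 fold change was -0.28 (SE 0.13, adjusted p = 0.106). The fall thus passed the test in WT livers, and the difference between the genotypes is given below with its own test.

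**Figure D3:**
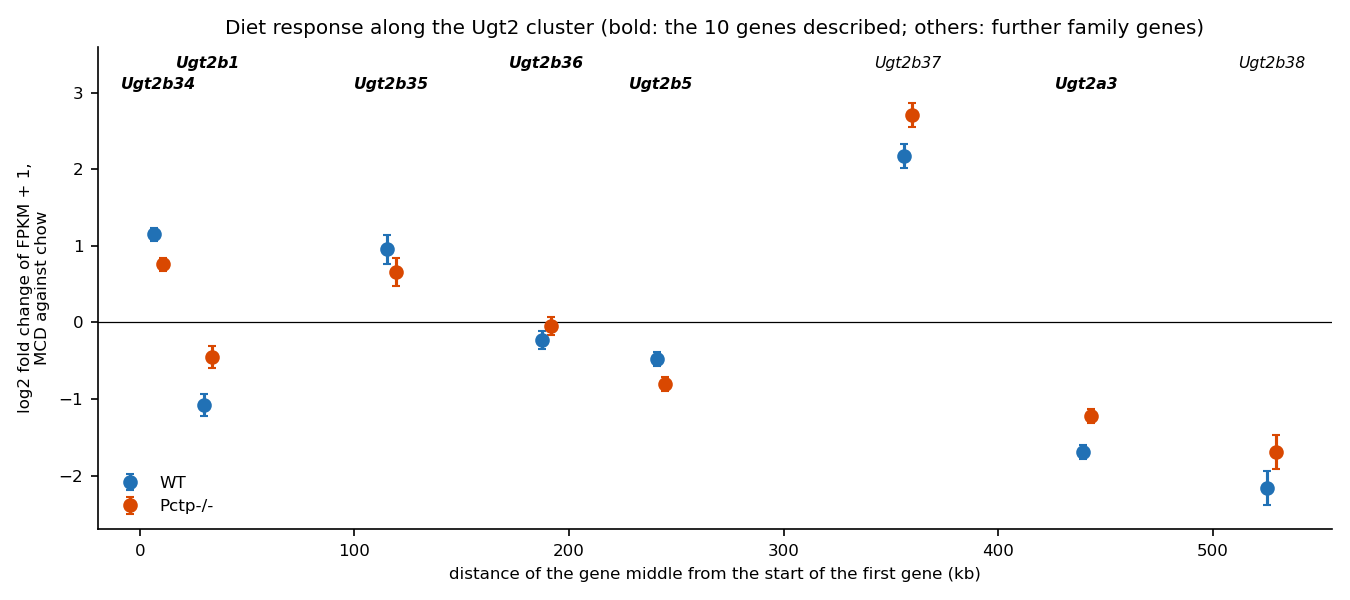
Log2 fold change of FPKM + 1 with the MCD diet (vertical axis, ± SE) for the 8 tested Ugt2 genes, against the distance of each gene from the start of the first gene of the chromosome 5 cluster (horizontal axis, kb). Ugt2b34, Ugt2b35 and Ugt2b37 are above 0 in both genotypes, and Ugt2b1, Ugt2b5, Ugt2a3 and Ugt2b38 are below 0.

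Direction was mixed along the chromosome 5 cluster. Ugt2b34 and Ugt2b1 are neighbours, and the first rose while the second fell in both genotypes. Ugt2b37 and Ugt2b38, the close copies of Ugt2b5, also went opposite ways. Ugt2b37 went from 0.599, 0.395 and 0.544 FPKM in WT livers on chow to 6.21, 6.45 and 4.94 on MCD, and from 0.420, 0.644 and 0.694 to 10.6, 11 and 6.92 in Pctp-/- livers. Ugt2b38 went from 5.69, 2.96 and 3.89 FPKM in WT livers to 0.139, 0.0536 and 0.195, and from 2.21, 4.72 and 3.84 to 0.281, 0.582 and 0.292 in Pctp-/- livers. No chow library overlapped an MCD library for either gene. The means on MCD were 11.4 and 16.3 times those on chow for Ugt2b37 in WT and Pctp-/- livers. For Ugt2b38 they were 0.0308 and 0.107 times those on chow. The log2 fold changes were 2.18 (SE 0.16, limma adjusted p = 7.25e-07) in WT and 2.71 (SE 0.16, adjusted p = 1.89e-07) in Pctp-/- livers for Ugt2b37, and -2.17 (SE 0.22, adjusted p = 7.49e-06) and -1.69 (SE 0.22, adjusted p = 6.20e-05) for Ugt2b38. At these identities to the far more abundant Ugt2b5, the split of reads among the 3 is uncertain.

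Of the other tested family members, Ugt1a10 rose by 0.52 (limma adjusted p = 0.00359) in WT and 0.75 (adjusted p = 3.84e-04) in Pctp-/- livers on the log2 scale, from 0.170 to 0.581 FPKM in the 6 chow libraries to 0.982 to 1.37 in the 6 MCD libraries. Its MCD means were 2.37 and 3.76 times its chow means in WT and Pctp-/- livers. Ugt3a2, at 120 to 138 FPKM on chow and 84.0 to 111 on MCD, fell by 0.48 (adjusted p = 0.00102) in WT livers, and its log2 fold change in Pctp-/- livers was -0.25 (adjusted p = 0.0427, and from 0.0196 to 0.138 when single libraries were left out). Ugt1a5 was at a log2 fold change of -0.24 (adjusted p = 0.110) in WT and fell by 0.45 (adjusted p = 0.00893) in Pctp-/- livers, and Ugt1a6b was at -0.07 and -0.25 and did not pass in either. Ugt1a2, Ugt1a7c, Ugt1a8, Ugt2a2 and Ugt8a were below the filter and were not tested.

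Pctp knockout on chow. On chow 0 of the 10 UGT genes were called between genotypes, against 0.136% of all tested genes, and 0 had an unadjusted p under 0.05 in limma, against 6.98% of all tested genes. The log2 fold changes of Pctp-/- against WT ran from -0.40 (SE 0.26) for Ugt1a6a to 0.24 (SE 0.21) for Ugt1a1. For Ugt2b34, Ugt2a3, Ugt2b5 and Ugt2b36, which had the smallest errors, they were -0.03 (SE 0.08), -0.06 (SE 0.09), -0.08 (SE 0.09) and -0.12 (SE 0.11). In each of the 10 genes the ranges of the 2 genotypes overlapped, whereas 10.6% of all tested genes did not overlap. The median over the 10 genes was -0.05, and over all tested genes 0.006.

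Pctp knockout on MCD. On MCD 1 of the 10 genes, Ugt2b34, was called between genotypes, against 0.818% of all tested genes. It was lower in Pctp-/- livers, at 150, 145 and 134 FPKM against 194, 184 and 196 in WT livers, a log2 fold change of -0.42 (SE 0.08, limma adjusted p = 0.0431), while 0.521% of all tested genes were called lower. The direction was the same in all 21 alternatives, from -0.31 to -0.46, with adjusted p from 0.0317 to 0.180. The call was lost without any 1 of the 6 MCD libraries (adjusted p from 0.0629 to 0.163), without WT chow replicate 3 (0.0703) and without Pctp-/- chow replicate 2 (0.0725) or 3 (0.0653). It was also lost with rescaling to the same total (adjusted p = 0.0954), median-of-ratios scaling (0.180), quantile normalization (0.127), the 6 MCD libraries alone (0.105) and no mean-variance trend (0.0737).

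The other UGT genes did not pass the adjusted threshold on MCD, but 6 of the 10 had an unadjusted p under 0.05, against 16.3% of all tested genes, and the genotypes did not overlap in 6 of the 10, against 26.6%. Ugt2a3, Ugt2b1, Ugt3a1, Ugt2b34 and Ugt2b5 were in both counts, Ugt1a1 only in the first and Ugt2b35 only in the second. Ugt3a1 was at 24.9, 28.5 and 29.2 FPKM against 16.4, 16.7 and 21.3 in WT livers, a log2 fold change of 0.58 (SE 0.13, limma adjusted p = 0.0792), and was called without Pctp-/- chow replicate 1 (0.0447) or WT MCD replicate 3 (0.0354). Ugt2b1 had a log2 fold change of 0.48 (SE 0.15, adjusted p = 0.136) and Ugt2a3 of 0.42 (SE 0.09, adjusted p = 0.0608). Ugt2a3 was called with quantile normalization (0.53, adjusted p = 0.0257) and with a minimum mean of 5 FPKM (adjusted p = 0.0441). Ugt2b5 (-0.40, SE 0.09, adjusted p = 0.0762) and Ugt2b35 (-0.33, SE 0.19, adjusted p = 0.408) were the other two with lower values and no overlap. Ugt1a1 (0.45, SE 0.21, adjusted p = 0.303), Ugt1a9 (0.30, SE 0.19, adjusted p = 0.451), Ugt1a6a (0.07) and Ugt2b36 (0.06) overlapped between genotypes. Of the 6 other tested Ugt genes, 0 were called between genotypes on either diet. On MCD 1 of these 6 had an unadjusted p under 0.05 in limma, and the genotypes did not overlap in 4 of them. The counts among the 10 therefore do not stand for the whole family.

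Marker levels also differed between the genotypes on MCD. The summed hepatocyte markers were at 74338 to 80342 FPKM in Pctp-/- and 59032 to 66832 in WT livers, while 0 of the 8 were called. This sum was carried by Alb, at 57218 ± 3809 FPKM in Pctp-/- and 43899 ± 2467 in WT livers, whereas Apoa1 (6113 ± 1333 and 6215 ± 634) and Tat (366 ± 175 and 568 ± 164) were not higher in Pctp-/- livers. The macrophage and leukocyte sum was at 81.5 to 85.7 in Pctp-/- and 87.8 to 138 in WT livers, and that of the 6 endothelial markers at 45.7 to 50.2 and 50.6 to 61.5, both without overlap. Of their tested markers 0 of 7 and 0 of 6 were called, against 0.818% of all tested genes. Clec4f held the largest part of the first sum (43.5 ± 1.38 and 67.0 ± 25.5 FPKM) and Clec4g of the second (30.3 ± 1.51 and 34.5 ± 2.69). Itgax, Cd3e, Cd79a and Vwf had higher means in Pctp-/- livers. The stellate cell sums overlapped, at 137 to 161 and 133 to 188, as did those of the 7 cholangiocyte markers, at 13.9 to 16.5 and 13.8 to 25.5. Their part in the genotype values on MCD was not tested. Over all tested genes the median of the log2 fold changes was -0.09 here, and over the 10 UGT genes it was 0.19.

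**Figure D4:**
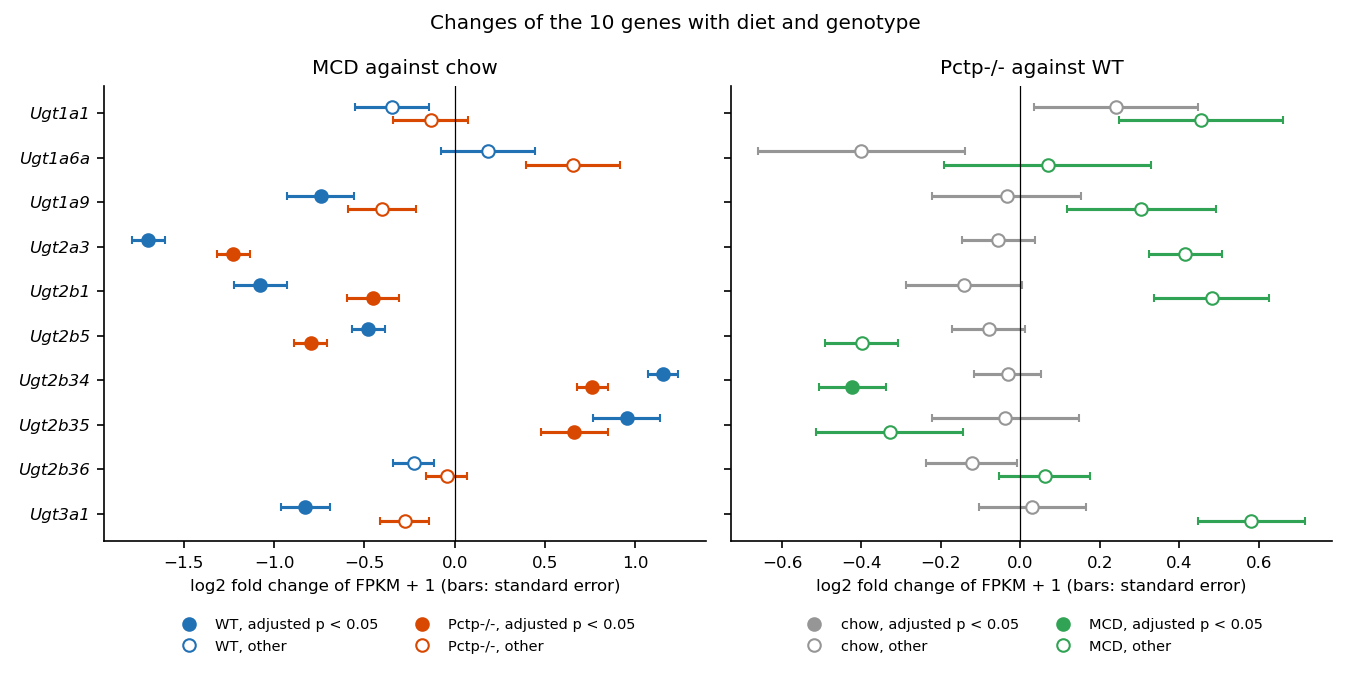
Log2 fold change of FPKM + 1 (horizontal axis, ± SE) of the 10 UGT genes, for MCD against chow in each genotype (left) and for Pctp-/- against WT on each diet (right). Filled points passed the test at adjusted p under 0.05. On the right only Ugt2b34 on MCD is filled, at -0.42, and the chow values lie between -0.40 and 0.24.

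Difference of the diet responses. The change with MCD in Pctp-/- livers minus that in WT livers passed the adjusted threshold for 0 of the 10 genes, against 0.0963% of all tested genes, so a difference between the genotypes in the diet response was not shown for any of them by limma. With an unadjusted p under 0.05 there were 5, against 15.1% of all tested genes. These were Ugt2b1 (0.62, SE 0.21, adjusted p = 0.187), Ugt3a1 (0.55, SE 0.19, adjusted p = 0.202), Ugt2a3 (0.47, SE 0.13, adjusted p = 0.142), Ugt2b34 (-0.39, SE 0.12, adjusted p = 0.164) and Ugt2b5 (-0.32, SE 0.13, adjusted p = 0.267). Side by side, the log2 changes with MCD in WT and in Pctp-/- livers were -1.08 and -0.45 for Ugt2b1, -0.83 and -0.28 for Ugt3a1, -1.70 and -1.23 for Ugt2a3, 1.15 and 0.76 for Ugt2b34, and -0.48 and -0.80 for Ugt2b5. The first 4 had the smaller change in Pctp-/- livers and Ugt2b5 the larger. This difference uses the same MCD libraries as the genotype comparison on MCD.

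Of the 10 genes that supply UDP-glucuronic acid, 5 rose and 2 fell with MCD in WT livers, where 34.5% of all tested genes rose and 22.5% fell. In Pctp-/- livers 3 rose and 2 fell, against 26% and 24.4%, so the share called there was near that of all tested genes. Ugp2, which makes UDP-glucose, was at 80.1, 76.6 and 83.4 FPKM in WT livers on chow and 206, 181 and 196 on MCD, a log2 fold change of 1.27 (SE 0.09, limma adjusted p = 5.15e-07), and rose by 1.49 (SE 0.09, adjusted p = 2.06e-07) in Pctp-/- livers. Ugdh, which oxidizes UDP-glucose to UDP-glucuronic acid, was at 51.1, 42.8 and 43.9 FPKM in WT livers on chow and 106, 82.0 and 76.3 on MCD, a log2 fold change of 0.91 (SE 0.12, adjusted p = 6.71e-05). Ugdh in Pctp-/- livers was at 42.0, 45.1 and 39.7 on chow and 48.1, 49.0 and 55.9 on MCD, a log2 fold change of 0.26 (SE 0.12, adjusted p = 0.0939).

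Ugdh was the 1 gene of the 67 tested pathway genes that was called between genotypes on MCD, where 0.818% of all tested genes were called. It was lower in Pctp-/- livers, with a log2 fold change of -0.76 (SE 0.12, limma adjusted p = 0.0171) and no overlap. The call was lost without WT MCD replicate 2 (adjusted p = 0.0509) or Pctp-/- MCD replicate 2 (0.0891), and with the 6 MCD libraries alone (0.0869). The difference of its diet responses was -0.65 (SE 0.17, adjusted p = 0.139), which did not pass. Slc35d1, which carries UDP-glucuronic acid into the endoplasmic reticulum, was at 42.9, 47.4 and 41.8 FPKM in WT and 30.9, 23.8 and 35.1 in Pctp-/- livers on MCD, without overlap, with a log2 fold change of -0.56 (SE 0.14, adjusted p = 0.0895). Against chow it fell by 0.42 (SE 0.14, adjusted p = 0.0262) in Pctp-/- livers, a call that was lost without Pctp-/- chow replicate 2 (-0.38, adjusted p = 0.0817) or Pctp-/- MCD replicate 2 (-0.26, adjusted p = 0.118). Gusb, the lysosomal enzyme that removes glucuronic acid from glucuronides, was at 15 ± 5.32 FPKM in WT and 11.2 ± 0.802 in Pctp-/- livers on MCD and passed no test.

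**Figure D5:**
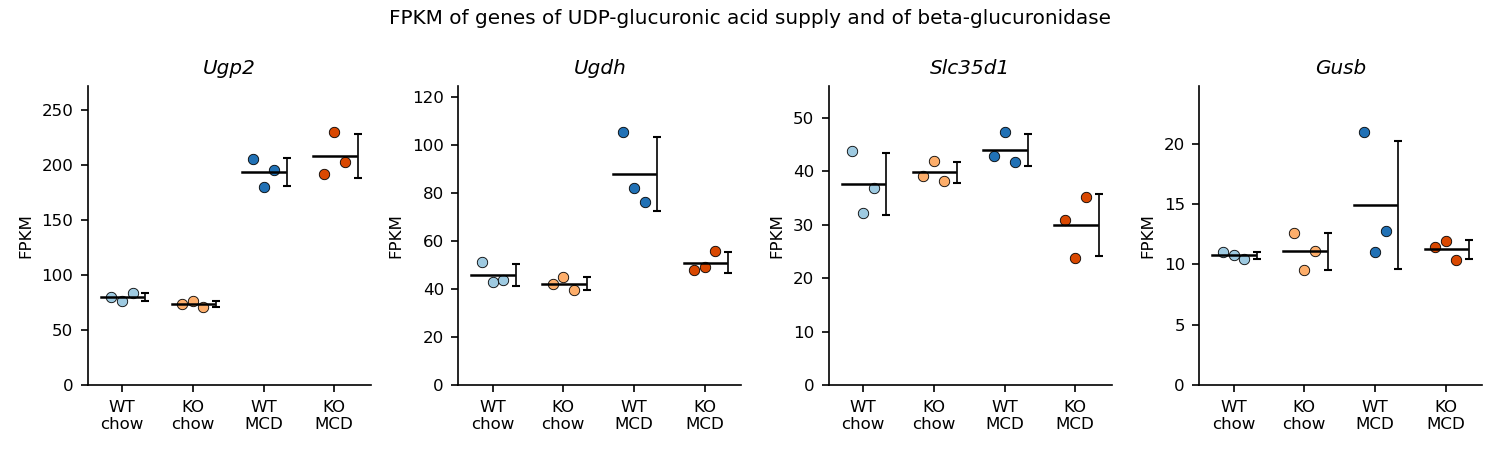
FPKM (vertical axis from 0) of Ugp2, Ugdh, Slc35d1 and Gusb in the 12 liver libraries, by group, with group means as lines and ± 1 SD as bars (n = 3). Ugdh was at 76.3 to 106 FPKM in WT livers on MCD and at 39.7 to 55.9 in Pctp-/- livers on either diet.

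Among the 10 tested genes of glucuronide and bilirubin transport, 4 rose and 4 fell in WT livers with MCD, against 57% of all tested genes called in either direction. In Pctp-/- livers 5 rose and 4 fell, against 50.3% called. Abcc3, which exports glucuronides to the blood, fell from 105 ± 16.9 to 24.5 ± 5.74 FPKM in WT livers (log2 fold change -2.07, SE 0.17, limma adjusted p = 1.40e-06) and from 96.2 ± 15.1 to 17.9 ± 1.03 in Pctp-/- livers (-2.35, SE 0.17, adjusted p = 6.73e-07). Abcc4, a second exporter to the blood, rose by 0.68 (SE 0.19, adjusted p = 0.00778) in WT livers, from a mean of 0.280 to 1.12 FPKM. Over the alternatives its log2 fold change there ranged from 0.53 to 1.54. Abcc2, the exporter to bile, was at 72.9 ± 6.99 and 88.9 ± 21.7 FPKM in WT livers on chow and MCD, and at 64.5 ± 1.33 and 83.9 ± 4.41 in Pctp-/- livers, where its log2 fold change of 0.37 had an adjusted p of 0.0435 that ran from 0.00743 to 0.123 when single libraries were left out. Of 10 genes of heme synthesis and of heme breakdown to bilirubin, the UGT1A1 substrate, 2 rose and 4 fell in WT livers (57% of all tested genes called). In Pctp-/- livers 2 rose and 6 fell (50.3% called). Hmox1 and Hmox2, the heme oxygenase genes, were the 2 that rose in both genotypes. Those that fell were genes of heme synthesis and Blvrb, a biliverdin reductase gene. Of 10 genes that break down UDP-glucuronic acid and glucuronides, 3 rose and 4 fell in WT and 2 rose and 3 fell in Pctp-/- livers, against the same shares.

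A list of 27 regulators of UGT genes was used, all of them transcription factors except Keap1. Of the 27, 3 rose and 13 fell with MCD in WT livers, where 34.5% of all tested genes rose and 22.5% fell. In Pctp-/- livers 5 rose and 10 fell, where 26% rose and 24.4% fell. The number called in either direction was near the share of all tested genes in both genotypes (57% and 50.3%). Hnf4a, a hepatocyte factor, fell by 1.10 on the log2 scale (SE 0.10, limma adjusted p = 2.78e-06) in WT and by 0.87 (SE 0.10, adjusted p = 2.22e-05) in Pctp-/- livers. Ahr, the aryl hydrocarbon receptor, rose by 0.57 (SE 0.10, adjusted p = 6.36e-04) in WT livers, and its change in Pctp-/- livers was 0.14 (adjusted p = 0.295). Nr1i2 (the pregnane X receptor) and Nr1i3 (the constitutive androstane receptor), which respond to drugs and bilirubin, passed no test, at 33.9 ± 8.47 and 52.1 ± 9.48 FPKM in WT livers on chow and 27.4 ± 2.99 and 44.4 ± 7.05 on MCD. Dbp, a clock-controlled factor, was the 1 pathway gene called between genotypes on chow, at 39.5, 98.3 and 86.0 FPKM in WT and 5.58, 9.85 and 5.64 in Pctp-/- livers (-3.18, SE 0.54, adjusted p = 0.0492), where 0.136% of all tested genes were called. That call held in 3 of the 12 settings that left out a single library, with adjusted p from 0.00723 to 0.276, and the times of day at which the livers were taken are not given in the sources used here.

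The genes outside the family with the most similar pattern were found for those of the 10 UGT genes that rose most and fell most in WT livers, by the root mean square difference of their centred log2(FPKM + 1) values over the 12 libraries. For Ugt2b34 these were Eif2s1 (0.084), Ifi204 (0.087) and Ghitm (0.088), and Ghitm was at means of 88.0, 85.5, 187 and 158 FPKM in WT chow, Pctp-/- chow, WT MCD and Pctp-/- MCD livers. Ifi204 was low, at means of 0.424, 0.357, 2.25 and 1.39 FPKM in the same order. At such levels the added 1 reduces its log2 change, so its likeness depends on this scale. For Ugt2a3 these were Amdhd1 (0.072), Lipc (0.097) and Cyp2c23 (0.098), and Lipc was at means of 114, 124, 38.6 and 50.3 FPKM in the same order. Likeness of this kind is a description over 12 libraries that fall into 4 groups.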

How the data were processed

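Whole-liver RNA-seq of 12 mice, 3 in each of 4 genotype and diet groups, was analysed. Expression was deposited by the authors as FPKM per Ensembl gene, with reads aligned to mm10 per the submitters' processing notes, and a table of read statistics. The aligner, the gene annotation, the counting of multi-mapped reads and the use of strand are not given in the sources used here. FPKM are not counts, so the study's count-based test was not repeated. Symbols and positions came from GENCODE M21 (GRCm38), and promoters from RefSeq (GRCm38.p6, all 10 genes matched).

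Values were transformed to log2(FPKM + 1), genes with a mean of at least 0.5 FPKM were kept, and limma 3.58.1 in R 4.3.3 was fitted with 1 mean per group over all 12 libraries, an empirical Bayes mean-variance trend and Benjamini-Hochberg adjustment over the 12466 genes. Calls required an adjusted p under 0.05 and no set fold change. Contrasts were Pctp-/- against WT on each diet, MCD against chow within each genotype, and the Pctp-/- diet effect minus the WT one. The labels call the samples biological replicates. Tested on simulated data for the knockout on MCD with 12466 genes, the fit recovered 86.5% of 200 genes given a log2 change of 1, with 3.35% of the called genes false. The simulated noise was normal and independent between genes. Smaller changes, such as the -0.42 to 0.58 of the UGT genes in that comparison, were not simulated.

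The 10 genes, the pathway and marker lists and the rule for named genes were chosen with earlier results of these data known. Named genes were the 10, all other Ugt genes, Pctp, 12 pathway genes (1 of which is not reported here) and any pathway gene called for the knockout or for the difference, plus 3 nearest patterns for the UGT genes with the largest and smallest diet change. Alternatives were another pseudocount, other filters, 3 rescalings, the libraries of a comparison alone, a replicate block, no trend, and leaving out each library.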

Additional observations from a re-analysis of the deposited data

Results flagged for a closer look

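Slco1b2, which takes bilirubin and its conjugates up into hepatocytes, stood out because its genotype groups separated in opposite directions on the 2 diets. On chow it was at 348, 300 and 276 FPKM in WT and 275, 265 and 252 in Pctp-/- livers, a log2 fold change of -0.22 (limma adjusted p = 0.736). On MCD it was at 283, 261 and 313 FPKM in WT and 328, 368 and 373 in Pctp-/- livers, a log2 fold change of 0.32 (adjusted p = 0.165). The difference of the diet responses was 0.53 (adjusted p = 0.142), so it did not pass its own test, and the chow groups were separated by less than 1 FPKM.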

How the results depend on the processing

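For single UGT genes, 422 of 435 values under other settings and 570 of 600 with 1 library left out kept their direction and their side of the threshold. On MCD, 2 UGT genes and 2 pathway genes were called between genotypes with a minimum mean of 5 FPKM. With rescaling to the same total, median-of-ratios scaling, the 6 libraries alone and no trend 0 UGT genes were called, and with the 6 libraries alone 0 pathway genes. On chow, 0 pathway genes were called between genotypes with a pseudocount of 0.1, no filter, quantile normalization, median-of-ratios scaling, the 6 libraries alone and no trend. The cause was not tested. With single libraries left out, UGT calls ranged from 0 to 0 for the knockout on chow, 0 to 2 for the knockout on MCD, 7 to 7 for MCD in WT, 4 to 6 for MCD in Pctp-/- and 0 to 0 for the difference. Pathway calls ranged from 0 to 2, 0 to 2, 42 to 46, 33 to 44 and 0 to 2.

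Small values without a call changed sign. Ugt3a1 for the knockout on chow was -0.00828 with quantile normalization and ranged from -0.10 to 0.13 with single libraries left out. The ranges for the knockout on chow were -0.21 to 0.069 for Ugt1a9, -0.11 to 0.019 for Ugt2b34 and -0.20 to 0.16 for Ugt2b35. For the knockout on MCD they were -0.063 to 0.18 for Ugt1a6a and -0.075 to 0.13 for Ugt2b36, for MCD in WT -0.090 to 0.35 for Ugt1a6a, and for Ugt1a1 -0.36 to 0.12 for MCD in Pctp-/- and -0.012 to 0.46 for the difference.

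Replicate numbers were shared between groups, but deviations of same-numbered samples correlated at -0.10 to 0.20, with no comparison in which all 3 pairs were above 0.1, so the numbers were not taken to pair mice. With a replicate block, calls over all genes went from 17 to 32, 102 to 115, 7110 to 7202, 6276 to 6430 and 12 to 59 for the knockout on chow, the knockout on MCD, MCD in WT, MCD in Pctp-/- and the difference. With the block, 2 pathway genes were called for the knockout on chow and 2 for the difference, Ugt1a6a was called for MCD in Pctp-/- livers (adjusted p = 0.0254), and the calls of the other UGT genes did not change.

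The number of calls over all genes for the knockout on chow ranged from 4 with the 6 libraries alone to 32 with the block, and that for the knockout on MCD from 19 with the 6 libraries alone to 119 with a minimum mean of 5 FPKM. Of the genes called for the knockout on MCD, 36.3% were higher, against 62.7% with quantile normalization. With 3 mice a group, changes of a size near the SE of 0.08 to 0.26 could not be detected. Changes well above their SE, such as those of Ugt3a1, Ugt2a3 and Ugt2b5 for the knockout on MCD, were also not called. Ugt1a6a, at about 1 to 4 FPKM, had the largest SE.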
